A study of Mus musculus with 8 samples.

Results

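The genes examined here set the pace of the G1 phase and were measured in nephron progenitor cells with and without Vhl: 3 Cip/Kip inhibitors of cyclin-dependent kinases (Cdkn1a, Cdkn1b and Cdkn1c), 2 Ink4 inhibitors (Cdkn2c and Cdkn2d), 3 D cyclins (Ccnd1, Ccnd2 and Ccnd3) and 2 E cyclins (Ccne1 and Ccne2). They were taken by symbol. All 10 were found among the 20254 genes of the deposited table, and all 10 passed the filter on low values that left 15381 genes to test. RNA sequencing measured polyadenylated transcripts of GFP-sorted cells from mouse kidneys at embryonic day 17.5. All 8 libraries came from the Six2EGFPcre strain, in which a Six2-driven fusion of GFP and Cre both marks the cells for sorting and deletes the floxed gene. The 4 control libraries have the genotype VHLNP+/-, so the controls already lack 1 Vhl allele in these cells, and the 4 mutant libraries have the genotype VHLNP-/-. Nothing in the labels tells separate animals, litters or pools apart, so the p-values here speak only of the spread among these samples, part of which may be technical. In a bulk sample fewer cells of a type and less RNA per cell cannot be told apart.

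D cyclins bind the kinases Cdk4 and Cdk6 in response to growth signals, and the active pairs phosphorylate the retinoblastoma protein. This frees E2F transcription factors, which induce the E cyclins, and cyclin E with Cdk2 carries the cell into S phase. Ink4 proteins block Cdk4 and Cdk6 alone, whereas Cip/Kip proteins bind whole cyclin and kinase complexes. In the developing kidney the progenitors of the cap mesenchyme must both divide and leave the cycle to form nephrons, p57 (Cdkn1c) is known from podocytes, and cyclin D1 is a known target of HIF in VHL-deficient renal carcinoma cells. VHL protein is the part of a ubiquitin ligase that marks HIF for degradation.

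Promoter sequences were available from RefSeq (GRCm38.p6) for 6 of the 10 genes. Those of 3 genes that changed between the groups, Cdkn1a, Cdkn1b and Ccne1, are shown here, with the letters known for p53 and HIF marked. Each run lies before a RefSeq transcription start and stops where the first GENCODE exon begins. Capitals mark the core of the HIF motif (ACGTG or GCGTG, which read CACGT or CACGC from the other strand) and, in Cdkn1a, a pair of CATG cores spaced as in a p53 element (CATGNNNNNNCATG).
Cdkn1a, chr17:29090729-29090975, + strand: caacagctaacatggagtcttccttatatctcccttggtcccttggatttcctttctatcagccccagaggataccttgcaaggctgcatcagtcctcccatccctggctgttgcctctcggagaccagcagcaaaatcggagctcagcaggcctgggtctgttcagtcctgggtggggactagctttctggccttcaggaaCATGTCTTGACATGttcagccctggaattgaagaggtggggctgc
Cdkn1b, chr6:134920151-134920400, + strand: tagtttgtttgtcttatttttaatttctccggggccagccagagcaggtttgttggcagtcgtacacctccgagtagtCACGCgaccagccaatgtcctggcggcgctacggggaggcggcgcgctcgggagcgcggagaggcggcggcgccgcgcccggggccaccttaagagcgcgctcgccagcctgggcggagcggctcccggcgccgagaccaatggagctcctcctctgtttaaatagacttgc
Ccne1, chr7:38107535-38107740, - strand: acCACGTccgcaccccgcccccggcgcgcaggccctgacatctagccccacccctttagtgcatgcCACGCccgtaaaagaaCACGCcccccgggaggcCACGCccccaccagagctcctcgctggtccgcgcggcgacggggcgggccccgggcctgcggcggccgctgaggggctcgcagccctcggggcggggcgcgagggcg
The Cdkn1a run precedes the more upstream of its 2 starts and holds the paired CATG 48 bases before it, a spacing found in 0.7% of 32851 promoter windows of 300 bases and searched for after the sequence had been seen. The Cdkn1b run has 1 HIF core, 172 bases before the start. The Ccne1 run has 4, at 248, 184, 168 and 151 bases before the RefSeq start. Over whole windows, a HIF core was present in 7 of 9 windows of the 6 genes and in 43.8% of all windows. Each of the 6 genes had a HIF core in at least 1 window, also Ccnd3, Cdkn2c and Cdkn2d, which were not called. In Cdkn1a it lies 206 bases before the other start, in a window not shown. The 9 windows had a GC content of 44% to 76%, beside a mean of 53.8% over all windows, and the part of GC content in these matches was not tested. The E2F motif (TTTGGCGC, TTTCGCGC, TTTCCCGC or TTTGCCGC) was in 0 of the 9 windows and in 2.3% of all. The CHR motif (TTTGAA or TTCGAA) was in 0 of 9 and 19.2%, CCAAT in 4 of 9 and 37.4%, and the E-box CACGTG, which contains a HIF core, in 1 of 9 and 7.2%. All motifs were searched on both strands, and a match is only a match of letters.

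The labels were checked first. The mean of Vhl was 1225 ± 107 normalised reads among controls and 318 ± 23.2 among mutants (SD, n = 4 per group), with no overlap (limma adjusted p = 4.22e-08, exact permutation p = 0.0286, the smallest value that 70 relabellings allow). Normalised reads are reads per gene divided by a size factor per library, and the libraries held between 37.3 and 46.5 M (mega) reads. The progenitor markers Six2 and Cited1 were present in every library, at 21553 to 28134 and 2395 to 3372 normalised reads. Summed markers of other cells ranged from 2616 to 11898 for 10 tubule genes, 1963 to 5092 for 8 ureteric bud genes, 21414 to 53240 for 8 stroma genes, 1347 to 2508 for 8 endothelial genes, 497.8 to 945.6 for 8 leukocyte genes and 63.1 to 129.8 for 3 erythroid genes. The ranges of the 2 groups overlapped for each of these 6 lists. Of their tested genes, 1 endothelial gene was called higher and the others had no call; of the 3 erythroid genes only 1 was tested. All 8 ureteric bud genes had a positive sign, with a median log2 difference of 0.58, and the authors' deposited table calls 1 of them higher. The part of ureteric bud cells in the other results was not tested. Control 2 and mutant 2 had almost no reads of Xist (8.84 and 51.9 normalised reads, beside 60017 to 111673 in the other libraries), and control 3 and mutant 2 had the lowest stroma and ureteric sums of their groups.

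Of the 10 genes, Cdkn1a, Cdkn1b and Ccnd2 rose in mutants and Ccne1 fell, while 6 had no call. A gene is called here at an adjusted p under 0.05 in limma, fitted to log2(normalised reads + 1) of all tested genes, and a log2 difference is mutant minus control on that scale. Beside the 4 of 10 called in either direction, 8.43% of all tested genes were called. Beside the 3 of 10 called higher, 5.4% of all tested genes were called higher, and beside the 1 of 10 called lower, 3.03% were. The groups did not overlap for 5 of the 10 genes, the 4 called ones and Cdkn2c, beside 15.3% of all tested genes. For 3 of 10 each mutant was above each control, beside 8.54% of all tested genes, and for 2 of 10 each was below, beside 6.72%. The median log2 difference of the 10 genes was -0.04, and that of all tested genes was -0.007. In the authors' deposited table, adjusted p under 0.05 picks the same 4 genes with the same signs, beside 12.5% of its 15144 tested genes, 7.12% higher and 5.35% lower.

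**Figure D1:**
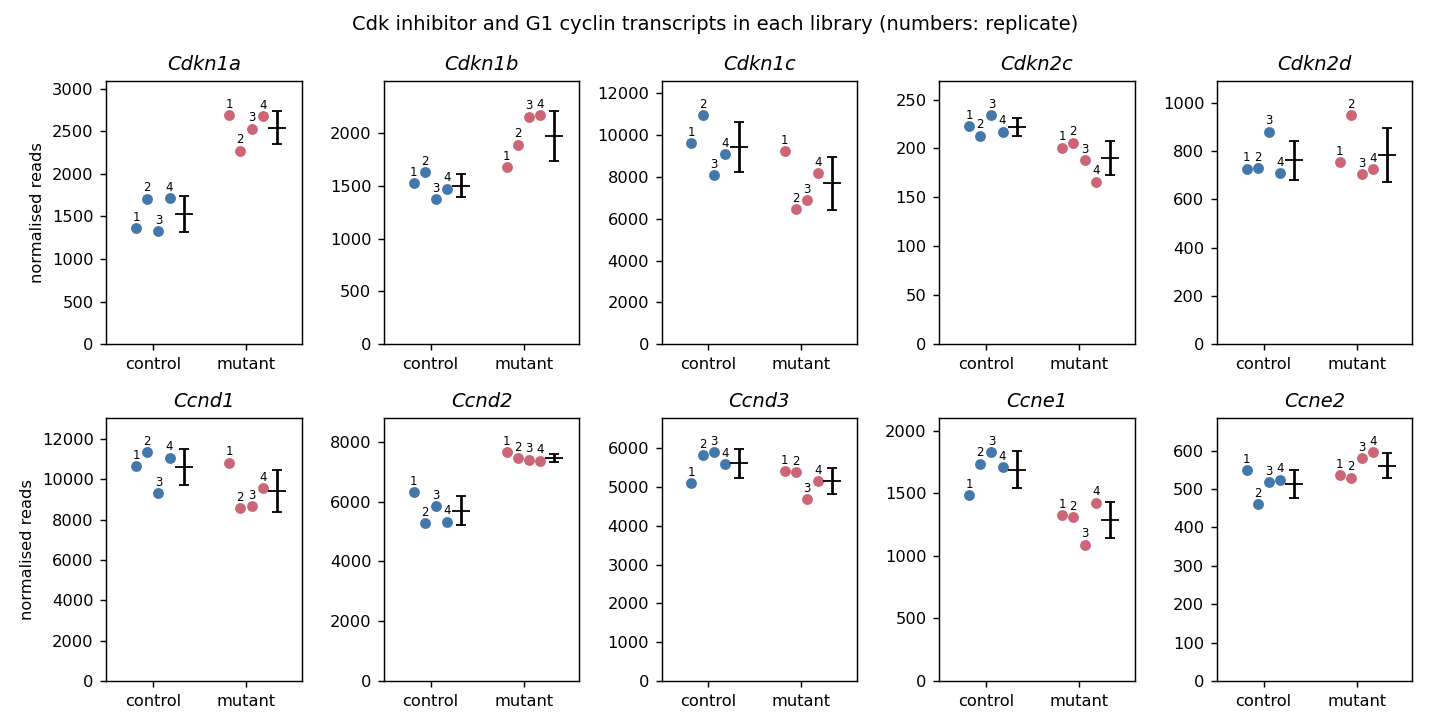
Normalised reads (y axis, from 0) of the 10 genes in the 4 control (blue) and 4 mutant (red) libraries, with the replicate number beside each point and the mean ± SD in black. For Cdkn1a, Cdkn1b and Ccnd2 each mutant point lies above each control point, and for Ccne1 and Cdkn2c each lies below.

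Cdkn1a, which encodes p21, the inhibitor induced by p53 in response to DNA damage and by other stress signals, showed the largest change of the 10. It was at 1362, 1710, 1331 and 1716 normalised reads in controls 1 to 4 and at 2687, 2272, 2532 and 2679 in mutants 1 to 4. The lowest mutant, mutant 2, stood well above the highest control. The mean rose from 1529 ± 212 to 2542 ± 194 (SD, n = 4 each), 1.67-fold in the fit (log2 difference 0.74, SE 0.1, limma adjusted p = 5.58e-04). The call was kept in 8 of 8 fits that left out 1 library, with an adjusted p of at most 0.00384. The gene lies on chromosome 17 from 29090976 to 29100727 (mm10, + strand), where an annotated gene on the other strand overlaps its exons. The library kit was stranded, but no source names the strand setting of the counting, so overlapping genes on opposite strands leave a gene's value uncertain.

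Cdkn1b encodes p27, an inhibitor of cyclin E and Cdk2 that holds cells in quiescence and is controlled largely through its degradation. It was at 1522, 1631, 1370 and 1471 normalised reads in controls 1 to 4 and at 1676, 1889, 2153 and 2165 in mutants 1 to 4. Mutant 1 lay just above control 2, and mutants 3 and 4 were the highest. The mean rose from 1498 ± 109 to 1971 ± 235 (SD, n = 4 each), 1.31-fold in the fit (log2 difference 0.39, SE 0.09, limma adjusted p = 0.0192). The call was lost without control 3 (limma adjusted p = 0.0507), control 4 (0.0592), mutant 3 (0.057) or mutant 4 (0.0733), and also without control 3 and mutant 2 together (0.0882). The gene lies on chromosome 6 from 134920401 to 134925513 (mm10, + strand), and no other annotated gene overlaps it.

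Cdkn1c encodes p57, an inhibitor expressed from the maternal allele that is known from cells leaving the cycle and from podocytes. It was at 9621, 10943, 8099 and 9096 normalised reads in controls 1 to 4 and at 9235, 6472, 6903 and 8174 in mutants 1 to 4. The groups overlapped: mutants 1 and 4 were above control 3, and mutants 2 and 3 lay below all controls. The means were 9440 ± 1180 and 7696 ± 1260 (SD, n = 4 each). The log2 difference was -0.3 with a 95% interval from -0.57 to -0.03, and it was not called (limma adjusted p = 0.174). The adjusted p in fits without 1 library lay between 0.0534 and 0.393, and the authors' deposited table gives 0.0905. Its sign was opposite to that of the other members of its family. An annotated gene on the other strand overlaps the exons of Cdkn1c, so its value is uncertain in the same way as that of Cdkn1a.

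The podocyte list gave values that bear on Cdkn1c. The summed level of its 12 markers was 25681, 32007, 25985 and 26212 normalised reads in controls 1 to 4 and 24207, 23538, 23588 and 21533 in mutants 1 to 4, so the sums did not overlap. A large part of this sum was Wt1 (13296 to 15910 in the 8 libraries), which progenitors express as well. Of the 12, 1 was called higher (Plce1), 1 lower and 10 had no call, with a median log2 difference of -0.4. The call of Plce1 (limma adjusted p = 0.0215) was lost without control 4, mutant 3 or mutant 4 (up to 0.0782). No marker of the list was at 0 in all libraries. The part of podocytes in the Cdkn1c level was not tested.

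The makeup of the Cip/Kip family differed with these changes. Reads per kb of exon, the scale on which genes of different length can be set side by side, put Cdkn1c far above its relatives: 4630 ± 581 in controls, beside 430.4 ± 59.7 for Cdkn1a and 329.2 ± 23.8 for Cdkn1b (SD, n = 4 each). Cdkn1c made up 84.7% to 86.8% of the family's reads per kb in controls and 74.1% to 80.1% in mutants. The share of Cdkn1a was 7.05% to 9.17% in controls and 13.4% to 15.6% in mutants. The share of Cdkn1b was 5.77% to 6.48% and 6.51% to 10.3%. The ranges of the groups did not overlap for any of the 3 shares, although mutant 1 was close to control 3 for Cdkn1b. The family's summed level was 5389 ± 642 and 4923 ± 643 reads per kb (SD, n = 4 each), with overlapping groups. Exon lengths came from the GENCODE M21 annotation, which may differ from the one the authors used.

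**Figure D2:**
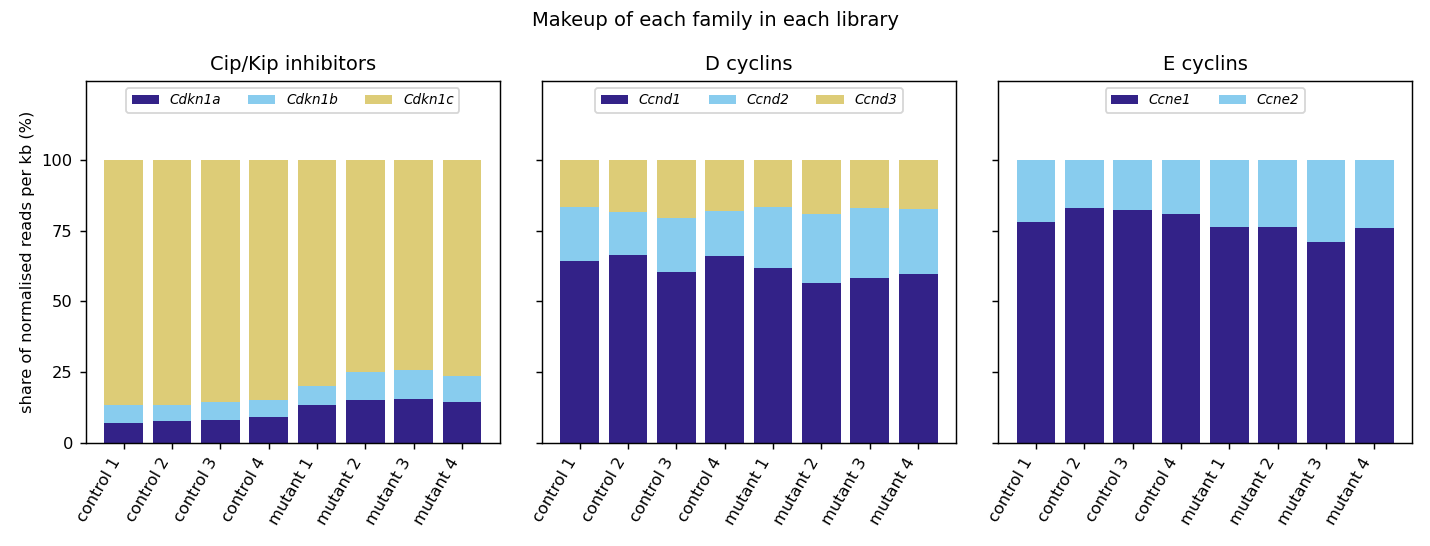
Share (%) of normalised reads per kb that each gene contributes to its family (y axis) in each of the 8 libraries (x axis), for Cip/Kip inhibitors, D cyclins and E cyclins; each bar adds up to 100%. The Cdkn1a share was 7.05% to 9.17% in controls and 13.4% to 15.6% in mutants, and the Ccnd2 share was 15.4% to 19.1% and 21.8% to 24.9%.

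The Ink4 inhibitors were not called. Cdkn2c, which encodes p18, was the least abundant of the 10 genes, at 223.2, 213.1, 233.8 and 217.1 normalised reads in controls 1 to 4 and 200.8, 205.9, 188.2 and 166.2 in mutants 1 to 4. Each mutant was below each control, by a narrow margin in mutant 2. The means were 221.8 ± 8.99 and 190.3 ± 17.7 (SD, n = 4 each), with a log2 difference of -0.22 and a 95% interval from -0.46 to 0.01 (limma adjusted p = 0.233). Cdkn2d, which encodes p19, was at 726.9, 730.6, 880.7 and 709 in controls 1 to 4 and at 753, 947.7, 704.6 and 724.5 in mutants 1 to 4. In both groups 1 library stood above the rest, control 3 and mutant 2. The log2 difference was 0.03 with a 95% interval from -0.2 to 0.26 (limma adjusted p = 0.893), and it was -0.06 without mutant 2.

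The other Ink4 genes, Cdkn2a and Cdkn2b, which encode p16 with Arf and p15 and are known for their induction in ageing and arrested cells, were near 0. Cdkn2a had a normalised read value of 0 in 5 of the 8 libraries and at most 4.8, in control 4. Cdkn2b was between 0.927 and 5.76 in the 8 libraries. Both were under the minimum of 10 normalised reads in at least 4 libraries and were not tested.

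Ccnd2 was the D cyclin that changed. Cyclin D2 binds Cdk4 and Cdk6, as cyclins D1 and D3 do, and is known as a target of mitogen and Myc signalling. It was at 6314, 5267, 5844 and 5331 normalised reads in controls 1 to 4 and at 7654, 7447, 7399 and 7365 in mutants 1 to 4. The mutants lay close together, all above the highest control, control 1. The mean rose from 5689 ± 490 to 7466 ± 130 (SD, n = 4 each), 1.32-fold in the fit (log2 difference 0.4, SE 0.06, limma adjusted p = 0.00271). The call was kept in 8 of 8 fits that left out 1 library, with an adjusted p of at most 0.0136. The gene lies on chromosome 6 from 127125162 to 127152193 (mm10, - strand) and overlaps 2 annotated genes on the other strand. One of them, 9330179D12Rik, had between 6.72 and 25.2 normalised reads.

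Ccnd1, the cyclin D1 gene and the most abundant of the 10 by normalised reads, was not called. It was at 10642, 11347, 9312 and 11071 normalised reads in controls 1 to 4 and at 10824, 8565, 8663 and 9545 in mutants 1 to 4. Mutants 2 and 3 lay below all controls, while mutants 1 and 4 were within the range of the controls. The log2 difference was -0.17 with a 95% interval from -0.36 to 0.01 (limma adjusted p = 0.254). The upper end of this interval is below the fitted rise of Ccnd2, 0.4. Ccnd3 was at 5102, 5832, 5901 and 5590 in controls 1 to 4 and at 5406, 5386, 4682 and 5146 in mutants 1 to 4. Its groups overlapped, with mutant 3 alone below the controls, and its log2 difference was -0.12 with a 95% interval from -0.27 to 0.03 (limma adjusted p = 0.309). Ccnd1 overlaps Oraov1 (726.5 to 963.5 normalised reads) and Ccnd3 overlaps Bysl (1110 to 1751), each on the other strand.

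Among D cyclins the share of Ccnd2 in reads per kb was 17.4% ± 1.96 for controls and 23.6% ± 1.42 for mutants (SD, n = 4 each), with no overlap between 15.4% to 19.1% and 21.8% to 24.9%. Ccnd1 took 64.3% ± 2.72 and 59% ± 2.22, with overlapping groups, and Ccnd3 took 18.3% ± 1.66 and 17.4% ± 1.11. The summed level of the 3 D cyclins was 3493 ± 156 and 3377 ± 254 reads per kb (SD, n = 4 each), with overlapping groups.

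**Figure D3:**
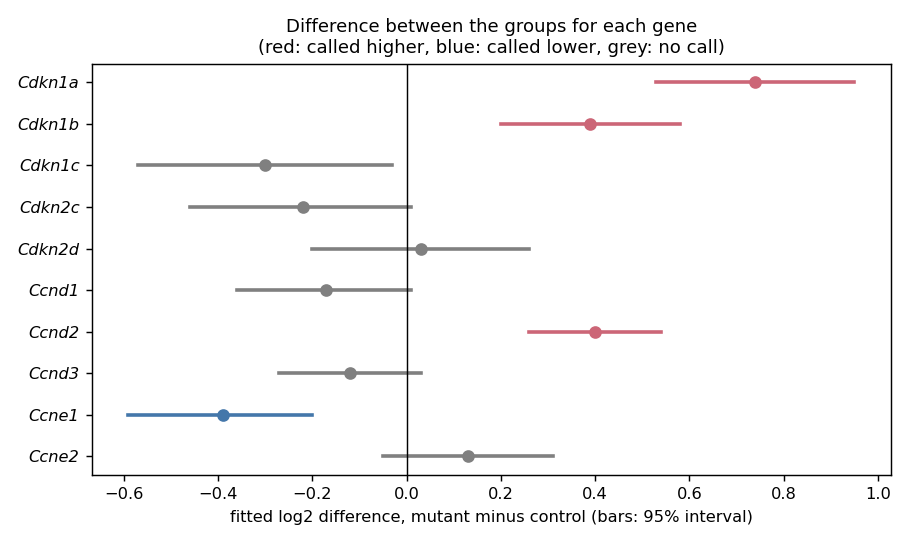
Fitted log2 difference, mutant minus control (x axis), with its 95% interval for each of the 10 genes; red marks genes called higher, blue a gene called lower and grey genes with no call. The intervals of Cdkn1a (0.53 to 0.95), Cdkn1b (0.2 to 0.58) and Ccnd2 (0.26 to 0.54) lie above 0 and those of Ccne1 (-0.59 to -0.2) and of Cdkn1c (-0.57 to -0.03), which was not called, below it.

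Of the E cyclins only Ccne1 was called. Ccne1, the cyclin E1 gene and a classic E2F target, was at 1485, 1737, 1830 and 1708 normalised reads in controls 1 to 4 and at 1324, 1311, 1090 and 1426 in mutants 1 to 4. Each mutant was below each control, with mutant 4 close to control 1. The mean went from 1690 ± 146 to 1288 ± 141 (SD, n = 4 each), a log2 difference of -0.39 (SE 0.09, limma adjusted p = 0.0203). The call was lost without control 2 (limma adjusted p = 0.0602), control 3 (0.0539) or control 4 (0.0608), and without control 3 and mutant 2 together (0.1) or control 2 and mutant 2 together (0.104). The gene lies on chromosome 7 from 38097984 to 38107534 (mm10, - strand), and no other annotated gene overlaps it.

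Ccne2, which encodes cyclin E2, was at 548.3, 460.5, 517.6 and 524.5 normalised reads in controls 1 to 4 and at 535.2, 529.5, 580.8 and 596.1 in mutants 1 to 4. Mutants 3 and 4 were above all controls and the others were within their range. The log2 difference was 0.13 with a 95% interval from -0.05 to 0.31, and it was not called (limma adjusted p = 0.378). In reads per kb Ccne1 made up 81.1% ± 2.24 of the pair among controls and 75% ± 2.58 among mutants (SD, n = 4 each), and the ranges of 78% to 83.2% and 71.1% to 76.5% did not overlap. The summed level of the pair was 781.6 ± 50.1 reads per kb among controls and 644.2 ± 53.5 among mutants (SD, n = 4 each), also with no overlap. Ccne2 shares exonic sequence with Ints8 on the other strand, which had 4047 to 4815 normalised reads.

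On the scale of reads per kb, the order of the 10 genes in controls ran from Cdkn1c (4630) and Ccnd1 (2250) through Ccnd3 (638.9), Ccne1 (634.9), Ccnd2 (604.6), Cdkn2d (484), Cdkn1a (430.4) and Cdkn1b (329.2) to Ccne2 (146.7) and Cdkn2c (82.6). Ccnd3, Ccne1 and Ccnd2 had overlapping ranges over the 4 controls and cannot be ordered, and neither can Cdkn2d and Cdkn1a. The ranges of Ccne1 and Cdkn2d overlapped too, although Ccne1 was above Cdkn2d within each control. In mutants Ccnd2 (793.5) and Cdkn1a (715.6) came next after Cdkn1c and Ccnd1, and Ccne1 (483.8) was level with Cdkn2d (497.1), whose ranges overlapped. Among all tested genes, Ccnd1, Cdkn1c and Ccnd2 stood at or above 91.4% to 95.3% of genes by normalised reads, and Cdkn2c at or above 27.5%.

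Cdkn1c and Ccnd1 followed each other from library to library. Both are on distal chromosome 7, Cdkn1c from 143458339 to 143461050 and Ccnd1 from 144929931 to 144939925 (mm10, both - strand). Across the 8 libraries Pearson's r of their log2 levels was 0.95 (exact permutation p = 4.22e-04, adjusted p = 0.01 over the 45 pairs of the 10 genes) and Spearman's rho was 0.9 (exact permutation p = 0.00456, adjusted p = 0.0685). Among the other pairs, Cdkn2c passed the same adjusted threshold with Cdkn1a and with Cdkn1b, both with a negative r; the groups do not overlap for these 3 genes, so no r over all libraries is given and the relation cannot be told apart from the difference between groups. Without mutant 2 and control 2, the libraries farthest from the median of Cdkn1c, r was 0.94. Within the controls r was 0.86 and within the mutants 0.98, each over 4 libraries and without a test. The summed level of 9 early nephron markers was lowest among controls in control 3 (23293 normalised reads, others 25108 to 27560) and lowest among mutants in mutants 2 and 3 (21891 and 23643, others 26125 and 26982). These are the libraries with the lowest Cdkn1c and Ccnd1 in their groups. The stroma, ureteric bud and endothelial sums were lowest in the same libraries. They were 24336, 1963 and 1347 in control 3, 21414, 2795 and 1801 in mutant 2, and 33807, 4000 and 1897 in mutant 3. The tubule and leukocyte sums were lowest in control 3 among controls and in mutants 2 and 4 among mutants. Of the 9 early nephron markers 1 was called lower and 0 higher. The part of early nephron cells, or of any other cell type, in the levels of both genes was not tested.

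**Figure D4:**
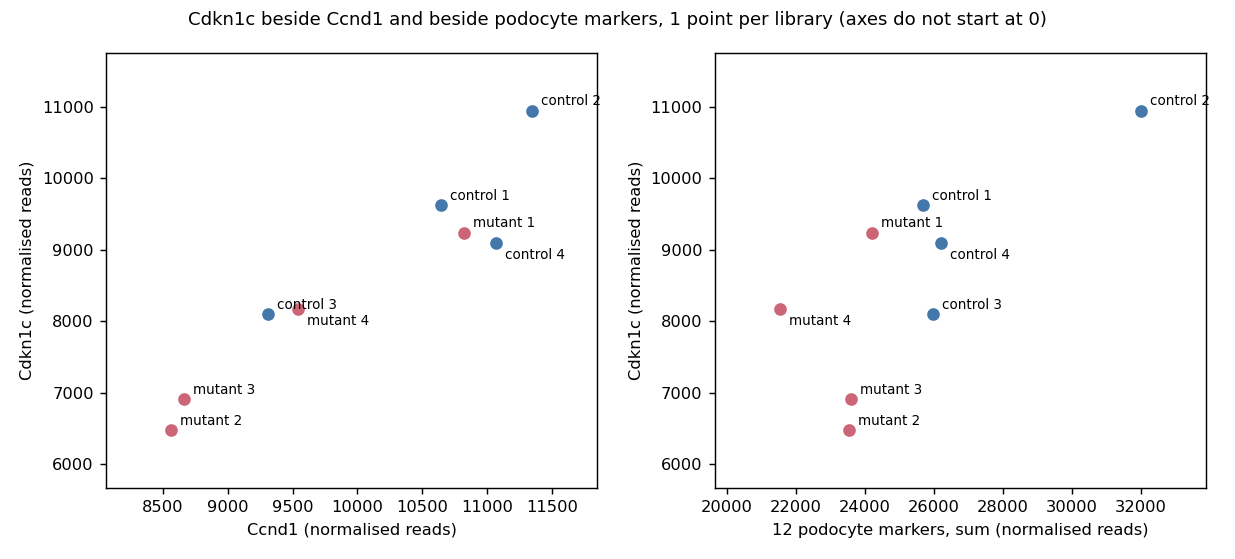
Cdkn1c in normalised reads (y axis) against Ccnd1 (left) and against the sum of 12 podocyte markers (right), 1 point per library, controls in blue and mutants in red; the axes do not start at 0. On the left the libraries lie along 1 line (Pearson's r 0.95), from mutant 2 to control 2, and on the right the mutant sums (21533 to 24207) lie left of the control sums (25681 to 32007).

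For each member the 3 genes with the most similar pattern were sought by Pearson's r of log2 levels over the 8 libraries, among all tested genes. Such maxima over 15381 genes are high by selection, and they share the libraries and the difference between the groups. Closest to Cdkn1a were Ovol1 (r 0.996), Arpc5 (0.994) and Ier3 (0.987). Ovol1, a zinc finger transcription factor of epithelia, was at 326.1, 410.5, 309.9 and 415 normalised reads in controls 1 to 4 and at 793.8, 629.6, 720.8 and 836.9 in mutants 1 to 4 (limma adjusted p = 2.81e-04). Like Cdkn1a it was higher in controls 2 and 4 than in controls 1 and 3, and lowest among mutants in mutant 2. The immediate early gene Ier3 rose from 222.6 ± 141 to 1419 ± 262 (SD, n = 4 each, limma adjusted p = 0.0073). Closest to Cdkn1b were Rnf149 (0.975), Mtmr1 (0.971) and Rmst (0.969). Closest to Ccnd2 were Celf2 (0.985), Pde4dip (0.982) and Noxo1 (0.981), of which Celf2, an RNA-binding protein, rose from 864.9 ± 217 to 2089 ± 68 (SD, n = 4 each, limma adjusted p = 3.03e-04). Closest to Ccne1 were Nup210 (0.993), Eno3 (0.992) and Acy1 (0.99), of which the nuclear pore gene Nup210 fell by 0.4 on the log2 scale (limma adjusted p = 0.0121), a call lost without mutant 2 together with control 2 (0.0766) or control 3 (0.0704). The mitochondrial carrier gene Slc25a30 was among the 3 closest to both Cdkn1c (0.962) and Ccnd1 (0.977), beside Olfml2b (0.971) and Mid1ip1 (0.966) for the former and Gbas (0.977) and Cnn2 (0.973) for the latter.

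The other members had these neighbours. Closest to Cdkn2c were Dhrs3 (r 0.977), Fam13c (0.973) and Rab3il1 (0.967). Closest to Cdkn2d were Lonrf2 (0.987), Atg16l1 (0.974) and Ccdc97 (0.974). Closest to Ccnd3 were Ticam1 (0.993), Sh3glb2 (0.992) and Ganab (0.992), and closest to Ccne2 were Zfp2 (0.972), Snx16 (0.972) and Rbbp9 (0.964).

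The lists of partners and targets of these genes, here and below, are to be read beside all tested genes, of which 8.43% were called, 5.4% higher and 3.03% lower. Among 9 genes of the G1 kinases and of proteins that act on such kinases, 1 was called higher, 0 lower and 8 had no call (median log2 difference -0.02). These proteins are an activating kinase, a phosphatase, the chaperone partner Cdc37 and the inhibitory kinase Wee1. The called gene was Cdk6, a partner of the D cyclins, which went from 178.4 ± 17.6 to 242.5 ± 8.58 normalised reads (SD, n = 4 each, limma adjusted p = 0.0256). Its call was lost without control 2, 3 or 4 or mutant 2, 3 or 4 (adjusted p of up to 0.0865). Among 13 pocket protein, E2F and DP genes, 1 was called higher, 0 lower and 12 had no call (median -0.00). This was Rb1, the retinoblastoma gene, at 1114 ± 89.1 and 1358 ± 104 (SD, n = 4 each, limma adjusted p = 0.0411), a call lost without control 2, 3 or 4 or mutant 1, 3 or 4 (up to 0.116). Among 16 genes that act on the turnover of G1 cyclins and inhibitors, 0 were called higher and 1 lower (median -0.02). Most belong to ubiquitin ligases, while Usp2 and Usp28 encode enzymes that remove ubiquitin. Fbxo31, which encodes a receptor for cyclin D1, fell by 0.38, from 1627 ± 148 to 1251 ± 62.9 (SD, n = 4 each, limma adjusted p = 0.00753), a call lost when the second division was not undone (0.0778).

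E2F target genes of the G1/S transition gave no call by limma: 0 of 26 were higher and 0 lower. Without adjustment, 7 of the 26 had a p under 0.05 with a negative sign and 0 with a positive sign, beside 11.2% and 12% of all tested genes. The authors' deposited table calls 2 lower and 0 higher. The median was -0.09, and 21 of 26 had a negative sign, beside 51.5% of all tested genes. The smallest p values were those of Rrm2, a subunit of ribonucleotide reductase, at 6459 ± 389 and 5570 ± 262 (SD, n = 4 each, limma adjusted p = 0.0544), and of Pold1, a subunit of DNA polymerase delta, at 3958 ± 335 and 3346 ± 222 (SD, n = 4 each, limma adjusted p = 0.0663). The groups did not overlap for either, and without control 1 both were called (0.0181 and 0.0311). Among 22 cyclins and other genes of S to M phase, limma called 0 higher and 0 lower, with 1 higher and 0 lower at an unadjusted p under 0.05 and a median of -0.04, and the authors' deposited table calls 0 and 0. Cenpf, a kinetochore gene, was at 5703 ± 1030 and 7225 ± 807 (SD, n = 4 each, limma adjusted p = 0.154). Mki67, which encodes the proliferation marker Ki-67, was at 18396 ± 2180 and 20662 ± 1870 (SD, n = 4 each, limma adjusted p = 0.302). A p that misses the threshold does not show that these levels were equal.

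**Figure D5:**
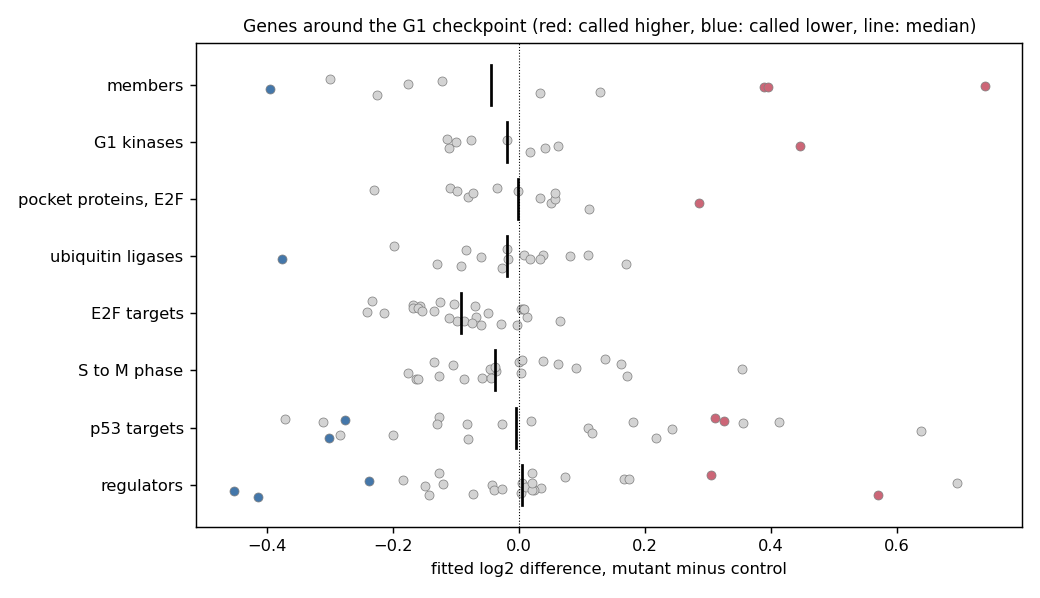
Fitted log2 difference, mutant minus control (x axis), of each tested gene in the 10 members and in 7 lists of genes around the G1 checkpoint; red marks genes called higher, blue genes called lower, grey no call, and the black line is the median. Cdkn1a (0.74) lies farthest to the right, and the medians of the lists lie between -0.09 and 0.01.

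The other p53 target genes had calls in both directions. Of 22, 2 were called higher, 2 lower and 18 had no call (median -0.00), beside 5.4% of all tested genes called higher and 3.03% lower. Sesn1, a stress-induced sestrin, fell by 0.3 (limma adjusted p = 0.0171), from 2345 ± 154 to 1903 ± 118 (SD, n = 4 each), a call lost without control 4 (0.0643) and without control 3 and mutant 2 together (0.0775). The nuclease gene Aen fell by 0.27, from 1914 ± 156 to 1579 ± 67.6 (SD, n = 4 each, limma adjusted p = 0.0271). Ddit4l was at 607.9 ± 41.3 and 755.7 ± 69.2 (SD, n = 4 each, limma adjusted p = 0.0443), and the death receptor gene Tnfrsf10b at 618.4 ± 79 and 770.8 ± 18.6 (SD, n = 4 each, limma adjusted p = 0.0482), both higher. Aen lost its call without control 2, 3 or 4 or mutant 3 or 4 (adjusted p of up to 0.0996), Ddit4l without control 2, 3 or 4 or mutant 2, 3 or 4 (up to 0.124), and Tnfrsf10b without any 1 of control 1, 2 or 4 or of the 4 mutants (up to 0.14).

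Among 26 transcription factor and other regulator genes known to act on the members, 2 were called higher, 3 lower and 21 had no call (median 0.01). Of all tested genes 5.4% were called higher and 3.03% lower. Mxi1, a partner of Max that opposes Myc and a known HIF target, rose from 3583 ± 169 to 5318 ± 51.8 (SD, n = 4 each, limma adjusted p = 2.95e-05). Myc, which is known to repress Cdkn1a and Cdkn1b and to induce Ccnd2, was at 3278, 4314, 4216 and 4381 normalised reads in controls 1 to 4 and at 3251, 2993, 3116 and 2462 in mutants 1 to 4. Control 1 stood with the mutants rather than with the other controls. Myc fell by 0.45 (limma adjusted p = 0.0298), a call lost without control 2, 3 or 4 or mutant 2, 3 or 4 (adjusted p of up to 0.0877). Hif1a fell by 0.41 (limma adjusted p = 0.00436), and Tcf7, a Wnt pathway factor, fell by 0.24 (limma adjusted p = 0.0287), a call lost without control 2, 3 or 4 or mutant 2, 3 or 4 (up to 0.098). Bmi1, a Polycomb gene known to repress Cdkn2a and named after its values were seen, rose 1.24-fold with overlapping groups (limma adjusted p = 0.0452), a call lost without control 2, 3 or 4 or mutant 2, 3 or 4 (up to 0.142).

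In the imprinted domains of Cdkn1c and of Igf2 and H19, 9 of 10 tested genes had no call (median over the 10 of 0.17). The other was Ascl2, a transcription factor of the placenta and gut, at 1.92 to 4.85 normalised reads in controls and 21.1 to 40.7 in mutants. It reached the minimum of 10 only through the mutants, so its call was fixed in part by the filter and is not read as a result. As a reference for the response to Vhl loss, 11 of 12 HIF target genes were called higher and 0 lower, with a median of 1.9, so the differences of the Cdk inhibitors and G1 cyclins (-0.39 to 0.74) were smaller than that median. Bnip3, a mitophagy receptor in that list, rose 9.74-fold (limma adjusted p = 7.9e-11). Among 10 progenitor markers 0 were called higher and 4 lower, with a median of -0.08.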

How the data were processed

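Reads per gene in 8 libraries, 4 control and 4 mutant, grouped by their titles, were compared once. STAR 2.5.3a, DESeq2 1.18.1 and the mm10 build are named in the submitters' processing notes. The kit was stranded (per the labels); no source names the counter, annotation or strand setting. The deposited signal is read counts divided by size factors, and by its own values it was then divided again by the factors (0.872 to 1.078), recycled down the genes. Both divisions were undone: whole reads rebuilt the deposited mean of 20254 of 20254 genes within a relative tolerance of 1e-09. The authors' deposited log2 fold changes and p-values served as another setting, and their deposited score was not used. Genes that reached 10 normalised reads in 4 or more libraries entered limma 3.58.1 (R 4.3.3) on log2(value + 1), with trended robust variances and Benjamini-Hochberg adjustment over 15381 genes, which was also tested on simulated data. The libraries held 37.3 to 46.5 M (mega) reads. The 10 members and all lists were chosen with earlier results of these data known. Named were the members, Vhl, up to 4 called genes of each list by adjusted p (or the 2 with the smallest p), and the 3 genes most like each member; Bmi1, Cdkn2a, Cdkn2b, Wt1 and the overlapping genes were added after their values were seen, and some genes that the rule names are not reported here. The labels do not say whether libraries of the same number are paired. Their deviations correlated at -0.14 to 0.21, which cannot show whether they share a litter or batch. Other settings were scaling, pseudocount, filter, limma-voom, library weights, left-out libraries and a replicate block.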

Additional observations from a re-analysis of the deposited data

Results flagged for a closer look

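In each group of 4 libraries, a library was looked for whose gap to the nearest other, as a share of the group's range, passed Dixon's critical value for 4 samples at the 95% level. Over 74 groups of gene values 5 such libraries were found, and chance passes about 5% of groups. Cdkn2d was high in control 3, at 880.7 normalised reads beside 709 to 730.6 in the other controls. Cdkn2a was at 4.8 in control 4 and at 0 in the other controls, a level of a few reads. Mki67 was high in mutant 3, at 23452 beside 19410 to 19976 in the other mutants. Myc was low in control 1, at 3278 beside 4216 to 4381, and Celf2 was high in control 1, at 1189 beside 721.7 to 781.6.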

How the results depend on the processing

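Cdkn1a and Ccnd2 kept their calls and directions in each of the 19 other settings. The number of genes called by limma, 1297 of all tested, was 698 with the deposited values as they are, 2996 with library quality weights, 766 with a replicate block, and, leaving out mutant 2 together with a control, 654 (control 2) or 754 (control 3). It lay between 749 (without mutant 4) and 1572 (without control 1) when 1 library was left out. The count of members called lower was 0 with the deposited values, with the replicate block and without either pair of libraries, 2 with quality weights (Ccne1 and Ccnd1, limma adjusted p = 0.0457), and between 0 and 1 when 1 library was left out. The count called higher was 2 or 3 throughout. Of 24 called genes, members and others singled out from the lists and neighbours, 13 lost their calls with the replicate block, among them Cdkn1b, Ccne1 and Ier3 (limma adjusted p = 0.0547, 0.055 and 0.0958), and with the deposited values 11 did, among them Ccne1 and Fbxo31 (0.06 and 0.0778). Ascl2, whose call was fixed in part by the filter, is 1 of these 24. It kept its call in the 15 settings where it had a value, which says little about robustness. The labels do not say whether same-numbered libraries share more than a number, and control 3 correlated best with mutant 2 (r 0.57). Cdkn2d changed sign, to -0.08 without control 2 and mutant 2, and lay between -0.06 (without mutant 2) and 0.11 (without control 3) when 1 library was left out. The cause of these shifts was not tested. The planned negative binomial tests were not run; the rebuilt reads were tested with limma-voom only, which lost 0 of these 24 calls. No setting with fewer reads was run, so what depth limits was not measured.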
